A study of Mus musculus with 18 samples.

Results

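The heat shock proteins and their DnaJ partners were followed in mouse brain after MPTP, a compound that is turned in the brain into a toxin of dopaminergic neurons. Members were the genes whose symbol began with Hspa, Hspb, Hsp90, Dnaja, Dnajb or Dnajc, together with Hsph1, Hspd1 and Hspe1, which gave 72 of the 18194 genes represented on the array. They comprised 27 DnaJ proteins of class C, 13 of class B and 4 of class A, 8 cytosolic HSP70 genes, 7 small heat shock proteins, 3 HSP110 genes, 2 HSP70 genes of the endoplasmic reticulum (ER), 2 HSP90 genes, 2 subunits of the mitochondrial chaperonin and 1 mitochondrial HSP70. The remaining 3, Hspbp1, Hspbap1 and Hspb11, came in through the spelling of their symbols and are not small heat shock proteins themselves. Of the 72 members, 61 were bright enough to be tested and 11 were not.

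The mice were C57BL/6J males of 14 weeks. The MPTP group had received 30 mg/kg of the toxin intraperitoneally once a day for 5 days, and the other group saline by the same route. Tissue was taken 4 days after the last MPTP injection, and striatum, midbrain and frontal cortex were each represented by 3 arrays from MPTP mice and 3 from saline mice, 18 arrays in all. The labels call the 3 arrays of a group biological replicates, and give 3 mice for each treatment. Because whole dissected tissue was used, fewer cells of a type and less RNA per cell cannot be told apart in any value below.

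HSP70 proteins bind unfolded stretches of other proteins in a cycle driven by ATP. DnaJ proteins bring them their clients and start ATP hydrolysis, and HSP110 proteins act as exchange factors that reset the cycle. HSP90 proteins take over part of the clients at a later folding stage, and small heat shock proteins hold aggregating proteins without using ATP. The ER and the mitochondrion have HSP70, HSP90 and DnaJ proteins of their own. Heat shock factor induces the cytosolic genes through heat shock elements, whereas the ER genes respond to the unfolded protein response through ER stress response elements.

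Promoters of several members carry these elements, and those shown here belong to the ER genes described first below and to the mitochondrial chaperonin pair. In the 250 bases before the annotated start (RefSeq, GRCm38.p6), searched on both strands, an ER stress response element written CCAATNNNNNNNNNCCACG stood before 3 of the 59 members that had a promoter entry (5.08%), against 35 of 27025 genes in all (0.13%). These members were Hsp90b1, Hspa5 and Dnajc3. Chaperone genes are known to respond through this element and the heat shock element below, so both shares are descriptions and no tests. The 4 promoters below are printed 5′ to 3′ on the gene's strand with each match in capitals, and Dnajb9 is shown as a member called under MPTP whose window held no match.
Hsp90b1 (chr10:86705445-86705694, strand -): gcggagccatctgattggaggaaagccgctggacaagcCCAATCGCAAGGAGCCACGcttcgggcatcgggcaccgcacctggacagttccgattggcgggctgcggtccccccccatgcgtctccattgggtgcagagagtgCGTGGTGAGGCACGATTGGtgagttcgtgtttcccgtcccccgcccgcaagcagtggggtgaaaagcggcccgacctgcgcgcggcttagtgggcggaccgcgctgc
Hspa5 (chr2:34771840-34772089, strand +): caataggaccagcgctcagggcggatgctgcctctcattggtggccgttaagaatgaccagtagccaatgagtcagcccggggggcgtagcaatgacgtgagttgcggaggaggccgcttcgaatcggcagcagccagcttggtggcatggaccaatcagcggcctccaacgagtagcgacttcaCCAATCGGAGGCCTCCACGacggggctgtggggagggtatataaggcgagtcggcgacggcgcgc
Dnajc3 (chr14:118937682-118937931, strand +): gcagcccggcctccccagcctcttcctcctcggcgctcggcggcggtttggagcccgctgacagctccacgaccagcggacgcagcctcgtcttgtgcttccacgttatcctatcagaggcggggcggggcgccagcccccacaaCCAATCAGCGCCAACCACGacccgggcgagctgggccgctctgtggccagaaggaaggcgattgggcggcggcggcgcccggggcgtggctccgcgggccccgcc
Dnajb9 (chr12:44210069-44210318, strand -): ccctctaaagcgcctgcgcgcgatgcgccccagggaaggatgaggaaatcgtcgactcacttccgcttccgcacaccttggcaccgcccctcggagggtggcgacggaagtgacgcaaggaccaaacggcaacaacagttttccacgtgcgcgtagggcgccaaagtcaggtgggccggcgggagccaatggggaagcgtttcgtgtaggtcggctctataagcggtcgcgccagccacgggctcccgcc
A heat shock element written GAANNTTCNNGAA also stood before 3 of the 59 members (5.08%), against 139 of the 27025 genes (0.514%). Dnajb6 was one of them. The other two, Hspd1 and Hspe1, are transcribed away from each other from a shared stretch of chromosome 1, so that overlapping matches there count for both, and the match on each gene's own strand is given in capitals within its surroundings.
Hspd1 (chr1:55088051-55088079, strand -): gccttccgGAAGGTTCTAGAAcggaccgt
Hspe1 (chr1:55088056-55088084, strand +): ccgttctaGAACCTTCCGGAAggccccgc

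Over the 3 regions together, MPTP mice differed from saline mice in 8 of the 61 tested members, 6 higher and 2 lower. The call required an adjusted p under 0.05 in limma for the mean of the 3 regional differences. The share of members called was 13.1%, against 9.04% of all 11741 genes tested, of which 6.61% were higher and 2.43% lower. The higher members were Hsp90b1, Dnajb9, Hspa13, Dnajc10, Dnajb14 and Hspa8, and the lower ones Hspa4 and Dnajb1. Their differences were small, from 1.11-fold for Hspa8 to 1.21-fold for Dnajb9. The median difference over all tested members was 0.02 on the log2 scale, beside 0.01 over all genes. The split into higher and lower depended on scaling: it became 4 higher and 12 lower after the arrays were brought to a common distribution a second time, and 1 higher and 7 lower without the saline array of narrowest distribution in each region. Leaving out single arrays gave between 3 and 14 called members: 3 without striatum saline replicate 1 or 2, 4 without midbrain MPTP replicate 3 or cortex MPTP replicate 2, 5 without striatum MPTP replicate 1 or cortex MPTP replicate 3, and 14 without midbrain saline replicate 2.

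**Figure D1:**
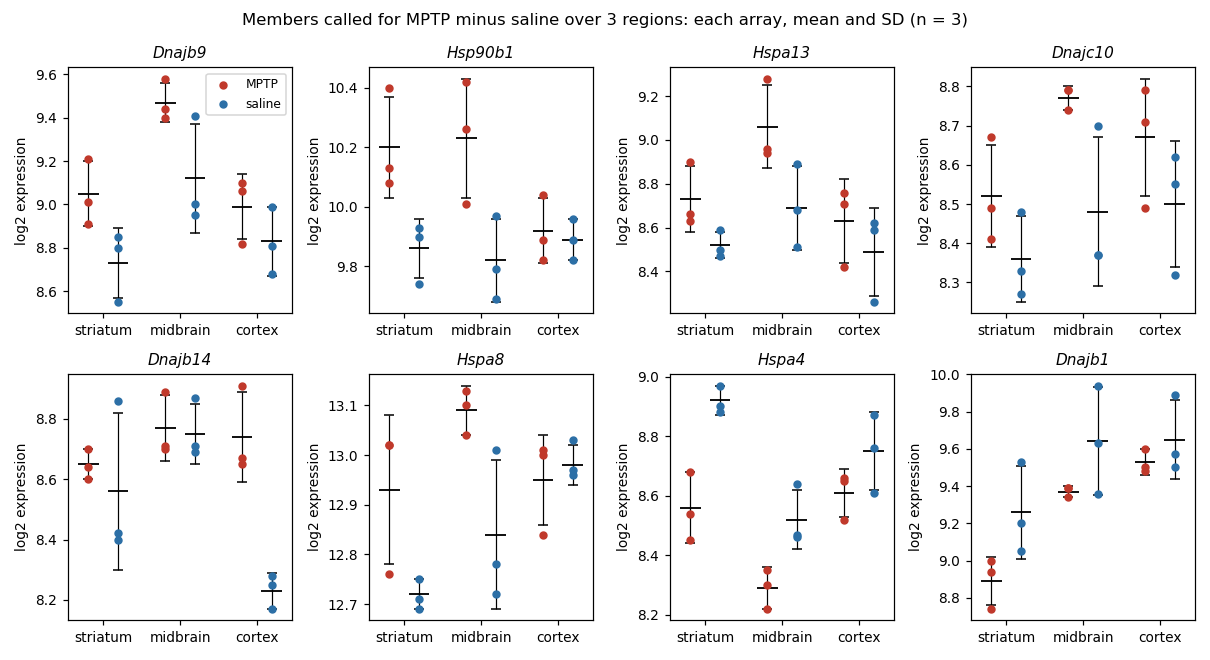
Log2 expression on every array of the 8 members called over the 3 regions, with MPTP arrays in red left of saline arrays in blue, and bars for the mean and SD (n = 3). Hsp90b1 and Hspa8 separate in striatum and midbrain but not in cortex, Dnajb14 separates only in cortex, and Hspa4 is lower on MPTP arrays in striatum and midbrain.

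Of the 6 members that were higher, 5 work in the ER or on its membrane. Hsp90b1, the HSP90 of the ER lumen also known as Grp94, showed in striatum 10.40, 10.08 and 10.13 in MPTP mice, against 9.74, 9.90 and 9.93 in saline mice. In midbrain it reached 10.01, 10.42 and 10.26 in MPTP mice and 9.97, 9.79 and 9.69 in saline mice. Every MPTP array lay above every saline array in both regions. In cortex the groups overlapped, with 9.82, 10.04 and 9.89 in MPTP mice and 9.96, 9.82 and 9.89 in saline mice. The difference was 0.41 ± 0.10 in midbrain (SE, adjusted p = 0.0267), the only member called there, 0.35 ± 0.10 in striatum (adjusted p = 0.0689) and 0.03 ± 0.10 in cortex (adjusted p = 0.98). For the mean of the regions it was 0.26 ± 0.06 (adjusted p = 0.00623), and it kept that call under all 29 alternatives run for it. The midbrain call was lost without saline replicate 2 or 3 or MPTP replicate 2 or 3 (0.32 to 0.40). A second Hsp90b1 probe set of nearly the same brightness (means over all arrays of 9.91 and 9.99) gave 0.06 ± 0.05 and was not called, so the 2 probe sets of this gene disagree in size.

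Dnajb9, an ER-lumen DnaJ protein induced by the unfolded protein response, had 9.01, 8.91 and 9.21 in striatum of MPTP mice, against 8.55, 8.80 and 8.85 in saline mice. Its midbrain values were 9.40, 9.44 and 9.58 in MPTP mice and 9.41, 8.95 and 9.0 in saline mice. The groups separated in striatum, and a single saline midbrain array reached the MPTP range. Over the regions Dnajb9 differed by 0.28 ± 0.07 (SE, adjusted p = 0.0111), and it has 1 probe set, so no second reading exists. This call was lost without striatum saline replicate 1 (0.24) and without the saline arrays of narrowest distribution (0.19). Hspa13, an HSP70-like protein of the ER and microsomes, had 8.96, 8.94 and 9.28 in midbrain of MPTP mice and 8.89, 8.51 and 8.68 in saline mice, which did not overlap. Its mean difference was 0.24 ± 0.07 (adjusted p = 0.0292), whereas its 3 other probe sets gave 0.03, -0.02 and -0.08. The Hspa13 call was lost in 10 of 29 alternatives, including the omission of striatum saline 1 or 2, striatum MPTP 1, midbrain MPTP 3, or cortex MPTP 2 or 3. Dnajc10, a DnaJ protein that reduces disulfide bonds during degradation from the ER, had 8.79, 8.74 and 8.79 in midbrain of MPTP mice and 8.70, 8.37 and 8.37 in saline mice. Again the midbrain groups did not overlap, the mean over the regions was 0.21 ± 0.06 (adjusted p = 0.0323), and the 2 other probe sets gave 0.04 and 0.06. The Dnajc10 groups overlapped in striatum and cortex. Its call was lost in 13 of 29 alternatives, among them the omission of any striatum saline array, midbrain saline 3, striatum MPTP 1, midbrain MPTP 1 or 3, or cortex MPTP 2 or 3 (0.18 to 0.24).

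Dnajb14, an ER-membrane protein whose J domain faces the cytosol, had its largest difference in cortex. When responses were compared directly between regions, as given further below, Dnajb14 was not called. In cortex it had 8.91, 8.67 and 8.65 in MPTP mice and 8.28, 8.17 and 8.25 in saline mice. The cortical groups were well apart, at 0.51 ± 0.10 (SE, adjusted p = 0.068), which was not called and was the smallest adjusted p of any member in cortex. With the same difference it was called when only the cortical arrays were fitted (adjusted p = 0.0179) or the replicate number was a block (adjusted p = 0.0457), and it was also called without saline replicate 3 (0.52). Midbrain and striatum differed by 0.01 and 0.09, and the mean over the regions by 0.20 ± 0.06 (adjusted p = 0.0342), a call lost in 10 of 29 alternatives, including the omission of striatum saline 1 or 2, striatum MPTP 1 or 3, midbrain MPTP 2, or cortex MPTP 1. A dimmer Dnajb14 probe set read 0.10 in cortex and 0.05 over the regions.

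The other 5 of the 10 members assigned to the ER here were not called with the probe set used. Hspa5, the main ER HSP70 known as BiP, had 11.10, 11.26 and 11.14 in midbrain of MPTP mice and 11.16, 10.82 and 11.11 in saline mice, and the groups overlapped in all 3 regions. Its mean difference was 0.07 ± 0.06 (SE, adjusted p = 0.539), and its 2 other probe sets, at 0.15 and 0.17, were not called either. Dnajc3, a BiP co-chaperone of the ER lumen, stood at -0.01 ± 0.06 on the probe set used, while 2 of its dimmer probe sets were higher in MPTP mice, at 0.32 ± 0.07 and 0.28 ± 0.07. Across these 10 assigned members the differences ran from -0.03 to 0.28 with a median of 0.16, against 0.01 for all genes. This grouping by compartment was made after the values were known and is given as a description. It may leave out other members with a place at the ER membrane, so it does not show how ER members as a whole moved.

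**Figure D2:**
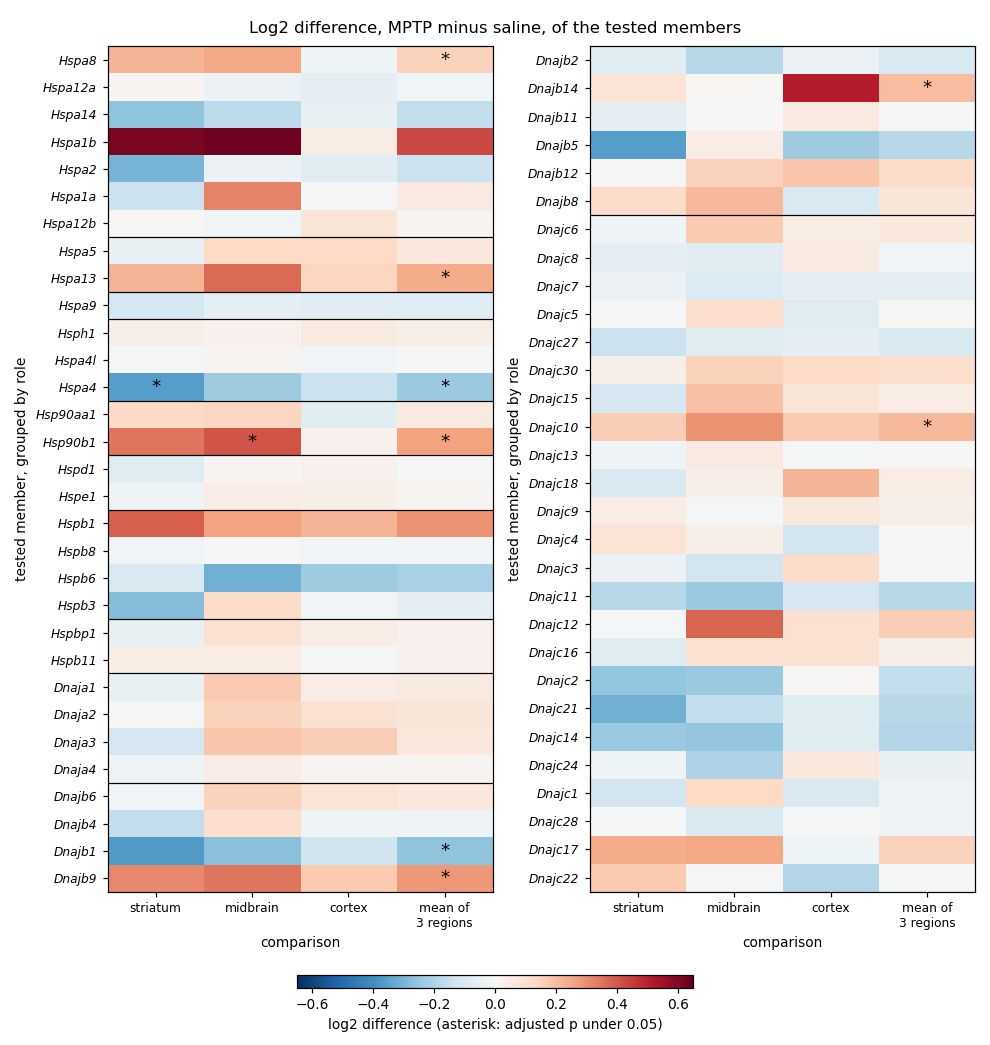
Log2 difference of MPTP minus saline mice for each of the 61 tested members, in rows grouped by role and ordered by brightness, for striatum, midbrain, cortex and the mean of the 3 regions. Red is higher in MPTP mice, blue lower, and an asterisk marks an adjusted p under 0.05: 1 in striatum, 1 in midbrain, 0 in cortex and 8 for the mean.

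Among the cytosolic HSP70 machinery the changes went both ways. Hspa8, the constitutive HSP70 and the brightest member (mean of 12.92), had 13.02, 12.76 and 13.02 in striatum of MPTP mice, against 12.71, 12.69 and 12.75 in saline mice. The midbrain values were 13.04, 13.13 and 13.10 in MPTP mice and 13.01, 12.78 and 12.72 in saline mice. Neither region showed overlap, although the lowest MPTP array exceeded the highest saline array by little in both. The cortical groups overlapped, and the mean over regions was 0.15 ± 0.04 (SE, adjusted p = 0.0371). That call held in 14 of 29 alternatives, was lost in 14 and reversed in 1 (-0.16 with the mean over probe sets). It was lost without any one of 10 of the 18 arrays (0.13 to 0.14), which were striatum saline 1 and 2, midbrain saline 3, cortex saline 1, and MPTP replicates 1 and 3 in striatum, 2 and 3 in midbrain and 2 and 3 in cortex. Of its other probe sets, the 2 bright ones read 0.08 and 0.12, and a dim one went the other way and is described further below.

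Hspa4, an HSP110 exchange factor, fell in MPTP striatum and was the only member called there. Its striatal values were 8.68, 8.54 and 8.45 in MPTP mice and 8.97, 8.90 and 8.88 in saline mice. Midbrain showed 8.22, 8.30 and 8.35 in MPTP mice and 8.64, 8.47 and 8.46 in saline mice, again without overlap, whereas the cortical groups, at 8.66, 8.65 and 8.52 in MPTP mice and 8.76, 8.61 and 8.87 in saline mice, overlapped. The difference was -0.36 ± 0.09 in striatum (SE, adjusted p = 0.0271), -0.23 ± 0.09 in midbrain (adjusted p = 0.148) and -0.24 ± 0.05 for the mean (adjusted p = 0.00353). The striatal call was lost without any one of 5 of the 6 striatal arrays (-0.30 to -0.38), and held without MPTP replicate 1 (-0.42). The 3 other Hspa4 probe sets were not called, with means over regions of 0.08, 0.01 and 0.14, the last of them below the filter value, so the decrease rests on 1 of 4 probe sets. The related exchange factors Hsph1 and Hspa4l were not called, and Hsph1 differed by 0.04 ± 0.05 (adjusted p = 0.663).

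Dnajb1, the major cytosolic DnaJ partner of inducible HSP70 and itself heat-inducible, fell, and here both probe sets were called. The probe set used had 8.94, 8.74 and 9.0 in striatum of MPTP mice and 9.05, 9.20 and 9.53 in saline mice. The second one had 8.14, 8.21 and 8.11 in MPTP mice and 8.37, 8.49 and 8.69 in saline mice. The striatal groups did not overlap on either probe set. In midbrain, with 9.39, 9.39 and 9.34 in MPTP mice and 9.63, 9.36 and 9.94 in saline mice, and in cortex the groups overlapped. Over the regions the differences were -0.26 ± 0.07 (SE, adjusted p = 0.0288) and -0.24 ± 0.07 (adjusted p = 0.0362, over all probe sets). The saline value of replicate 3 was the highest of its group in all 3 regions, and without those 3 arrays the difference was -0.12, given with no test because they were left out for their high values in such genes. The call was lost without any one of 6 of the 18 arrays, which were saline replicate 3 of each region, striatum saline 2, midbrain MPTP 3 and cortex MPTP 2 (-0.20 to -0.25).

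Hspa1b and Hspb1, both heat-inducible, varied widely between saline mice. Hspa1b, an inducible HSP70 gene whose sequence is nearly identical to that of Hspa1a so that probes may read both, had in striatum 7.16, 6.32 and 6.85 in MPTP mice, against 5.70, 5.66 and 7.13 in saline mice. In midbrain it had 7.81, 7.31 and 7.45 in MPTP mice and 6.86, 6.16 and 7.65 in saline mice. One saline array in each of these regions, replicate 3, lay within the MPTP range while the other two were lower. In cortex all arrays of both groups lay close together, with 8.11, 8.14 and 8.14 in MPTP mice and 8.12, 7.90 and 8.23 in saline mice. The mean difference of 0.43 ± 0.18 was not called (SE, adjusted p = 0.132), and the 2 other Hspa1b probe sets read 0.48 ± 0.14, called over all probe sets, and 0.25 ± 0.18. Hspb1, a small heat shock protein of glia and vessels as well as stressed neurons, had 9.10, 8.67 and 8.70 in striatum of MPTP mice and 8.27, 8.34 and 8.68 in saline mice, again with replicate 3 highest among saline arrays, and its mean of 0.29 ± 0.11 was not called (adjusted p = 0.0899). Hspb1 was called with the replicate number as a block (0.29, adjusted p = 0.0365). It also passed the threshold without cortex or midbrain saline replicate 3 (0.34 and 0.39), and Hspa1b without striatum or midbrain saline replicate 3 (0.59 and 0.56). Leaving out the highest saline array raises the difference by itself, so the calls made without it add no evidence.

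Replicate 3 of the saline mice was the highest array of its group in all 3 regions for 9 of the 61 members (14.8%), namely Dnajb1, Dnajb5, Dnajc3, Dnajc28, Hspa1b, Hspa4l, Hspb1, Hspbp1 and Hsph1. The same held for 7.57% of all genes tested. Saline replicate 2 was the lowest in all 3 regions for 8 members (13.1%, beside 6.02% of all genes), Hspa1a, Hspa1b, Hspa5, Hspd1, Dnaja1, Dnaja2, Dnajb4 and Dnajb5. Whether equal numbers stand for one mouse across regions is not stated. If they do, p-values over the regions may be too small for the members listed here, among them the called Dnajb1. The fit took arrays of different regions as nearly independent. Without replicate 3 of the saline group the mean difference was 0.74 for Hspa1b and 0.48 for Hspb1, but as those arrays were left out for their high values in these genes, no test is given.

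**Figure D3:**
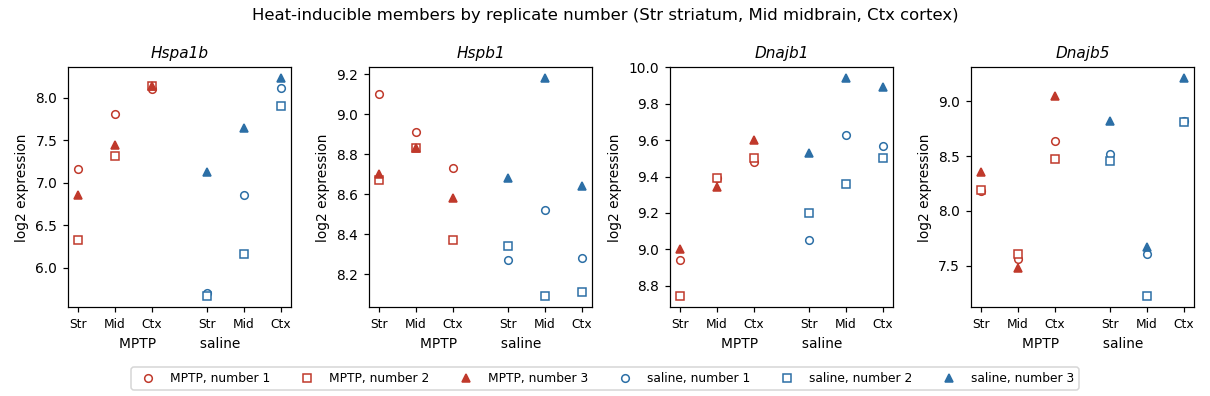
Log2 expression of Hspa1b, Hspb1, Dnajb1 and Dnajb5 by replicate number, with MPTP arrays in red at the left and saline arrays in blue at the right of each panel, and striatum, midbrain and cortex in turn within each treatment. Filled triangles are replicate 3, which is the highest saline array of each of these genes in all 3 regions.

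Hspa1a itself was dim and was not called, at 0.06 ± 0.10 (SE, adjusted p = 0.753). Hsp90aa1, the inducible cytosolic HSP90, had 12.19, 11.99 and 12.06 in striatum of MPTP mice and 11.94, 11.98 and 11.94 in saline mice, which did not overlap by a narrow margin. Its mean over the regions was 0.06 ± 0.04 (adjusted p = 0.33), while another probe set of the gene gave 0.18 ± 0.05 (adjusted p = 0.0228, over all probe sets). Within mitochondria, Hspd1, the large chaperonin subunit, differed by -0.01 ± 0.04 (adjusted p = 0.91). None of the 7 mitochondrial members was called in any region, and their mean differences ran from -0.18 for Dnajc11 to 0.11 for Dnajc30. As fitted here, no small heat shock protein was called in any MPTP comparison, and of the 4 tested Hspb6 was the lowest at -0.21 ± 0.08 (adjusted p = 0.0901).

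Reading one probe set per gene left out part of the signal of these genes. Of the 174 member probe sets, 19 were called over the regions when all 45101 probe sets were tested (10.9%, against 5.18% of all), 11 higher and 8 lower, and 11 of the 19 were probe sets other than the one used. The 45101 were not filtered for brightness and included 9211 that named no gene, whereas 61 of the 72 members passed the filter. These shares are therefore not like for like, and among the filtered genes 9.04% were called. The sharpest of the 19 was a dim probe set of Hspa8, which had in striatum 5.02, 5.40 and 4.93 in MPTP mice and 6.45, 6.34 and 6.15 in saline mice. Its midbrain values were 5.05, 5.72 and 5.15 in MPTP mice and 6.54, 5.90 and 6.26 in saline mice, and its cortical values 4.71, 6.01 and 5.46 in MPTP mice and 6.28, 6.13 and 6.27 in saline mice. No region showed overlap, but 5 of the 9 MPTP arrays and 0 of the 9 saline arrays lay below the filter value, so the size of the difference is uncertain. The fitted mean was -0.99 ± 0.13 (SE, adjusted p = 0.000127, over all probe sets), opposite to the 3 bright Hspa8 probe sets. What this probe set reads within the gene was not tested.

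A probe set of Dnaja1, a cytosolic HSP70 partner, moved upwards where the brighter ones did not. It had 9.0, 8.79 and 9.07 in striatum of MPTP mice and 8.27, 8.03 and 8.45 in saline mice, without overlap. In midbrain it had 8.94, 9.29 and 9.68 in MPTP mice and 8.78, 8.39 and 8.44 in saline mice. The cortical groups overlapped, with 8.59, 8.83 and 8.82 in MPTP mice and 8.76, 8.58 and 8.65 in saline mice. Its mean of 0.52 ± 0.08 (SE, adjusted p = 0.000467, over all probe sets) stood beside 0.06 and -0.05 on the 2 brighter Dnaja1 probe sets. Among the others called, those of Dnajb5 at -0.36, Hspa9 at -0.29, Hspa12a at -0.29 and Dnajb4 at -0.24 were lower in MPTP mice. These probe sets were picked out after their values were seen.

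**Figure D4:**
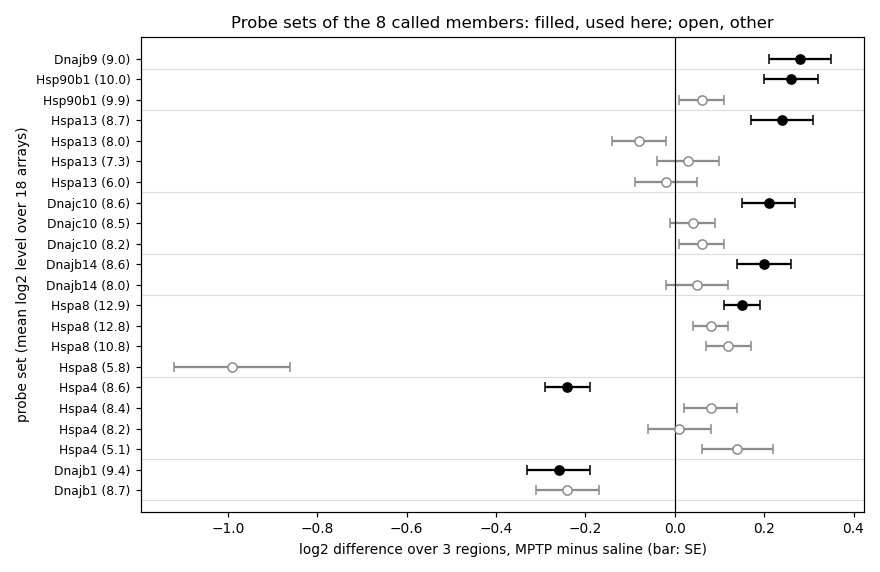
Log2 difference of MPTP minus saline mice over the 3 regions for every probe set of the 8 called members, with bars for the SE, filled points for the probe set used and open points for the others, and each label giving the mean log2 level. The other probe set of Dnajb1 reads -0.24, close to the one used, whereas those of Hspa4, Hspa13 and Dnajc10 lie near 0 and the dim one of Hspa8 at -0.99.

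Region by region, MPTP mice differed from saline mice in 1 member in striatum (1.64%, beside 2.1% of all genes), 1 in midbrain (1.64%, beside 2.54%) and 0 in cortex (beside 0.0681%). At an unadjusted p under 0.05 the members numbered 11 in striatum (18%, beside 16.3% of all genes), 16 in midbrain (26.2%, beside 16.6%) and 2 in cortex (3.28%, beside 6.13%). After Hspa4 and Hsp90b1, the striatal members of smallest p were Dnajb1 at -0.37 ± 0.13, Hspa2 at -0.30 ± 0.10, Hspa8 at 0.22 ± 0.08 and Dnajb9 at 0.31 ± 0.12, none of them called. Hspa2 is an HSP70 best known from the testis. In midbrain they were Hspa8 at 0.25 ± 0.08, Hspa13 at 0.37 ± 0.12, Dnajc12 at 0.38 ± 0.12, Dnajb9 at 0.35 ± 0.12 and Dnajc10 at 0.29 ± 0.10, again uncalled. Dnajc12, a partner of the aromatic amino acid hydroxylases that include tyrosine hydroxylase, had 8.72, 8.72 and 8.87 in midbrain of MPTP mice and 8.55, 8.28 and 8.34 in saline mice (adjusted p = 0.105). Those groups did not overlap, while Th itself, the tyrosine hydroxylase gene, had 8.09, 8.04 and 7.94 in MPTP midbrain and 8.97, 8.92 and 8.64 in saline midbrain.

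In cortex the members of smallest p after Dnajb14 were Dnajc18 at 0.22 ± 0.09, Hspb6 at -0.23, Dnaja3 at 0.16, Dnajb5 at -0.23 and Dnajc10 at 0.17, all uncalled. Whether a member responded differently between regions was tested directly, and no member was called in any of the 3 comparisons of responses. The share of all genes called was 0.0596% when striatum was set against cortex, with 7 members at an unadjusted p under 0.05 (11.5%, beside 7.75% of all genes). It was 0% for midbrain against cortex, with 4 such members (6.56%, beside 4.97%), and 0.0681% for midbrain against striatum, with 6 (9.84%, beside 5.89%). Dnajb14 led for striatum minus cortex at -0.42 ± 0.15 (SE, adjusted p = 0.508) and midbrain minus cortex at -0.50 ± 0.15 (adjusted p = 0.577). Behind it, Hsp90b1 stood at 0.32 and 0.39, Hspa8 at 0.25 and 0.29, and Hsp90aa1 at 0.20 and 0.21 in those same comparisons, with Dnajc18 at -0.31 and Dnajc22 at 0.36 for striatum minus cortex and Dnajb8 at 0.31 and Dnajc2 at -0.25 for midbrain minus cortex. For midbrain minus striatum they were Dnajc15 at 0.30, Dnaja3 at 0.29, Dnajc12 at 0.38, Dnajb4 at 0.27, Dnaja1 at 0.22 and Dnajb5 at 0.41, with adjusted p-values of 0.717 or more. Among the genes named for these comparisons, Dnajb8 and Dnajc22 lay near the filter value, with means of 5.22 and 5.32 over all arrays.

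Genes that work with these chaperones were read from lists chosen with earlier results of these data known. Of 26 ER folding and unfolded protein response genes, 4 were higher over the regions and 0 lower, where 6.61% of all genes were higher and 2.43% lower. Calr, the ER lectin chaperone calreticulin, differed by 0.26 ± 0.05 (SE), its membrane relative Canx by 0.23 ± 0.05, the transcription factor Xbp1 by 0.31 ± 0.07 and the asparagine synthetase gene Asns by 0.14 ± 0.04. In midbrain alone, where 2.54% of all genes were called, Xbp1 at 0.59, Canx at 0.32 and Calr at 0.32 were called, and in striatum and cortex 0 were. The median over the 26 genes was 0.03, beside 0.01 for all genes.

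Among 15 HSP70 co-chaperones other than DnaJ proteins, St13 at 0.25, Tomm70a at 0.17 and the ER exchange factor Hyou1 at 0.18 were higher over the regions. Sil1, the other exchange factor of BiP, was lower at -0.20. Of all genes 6.61% were higher and 2.43% lower. Tomm70a, a mitochondrial import receptor that docks HSP70 and HSP90, was also called in midbrain at 0.37. Of 15 HSP90 co-chaperones, only Fkbp5 was called, at 0.47 ± 0.08 (SE) over the regions and 0.56 ± 0.14 in midbrain. Its cortical difference was larger, 0.65 ± 0.14, but not called (adjusted p = 0.107), and its striatal one was 0.19 ± 0.14. Fkbp5, an immunophilin, is induced by glucocorticoid receptor signalling. Lonp1, a protease of the mitochondrial matrix, fell by 0.16 and was alone among 11 mitochondrial folding and protease genes. None of the 4 tested genes of heat shock factor regulation was called in any MPTP comparison, nor was any of the 14 genes of the cytosolic chaperonin CCT and prefoldin.

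Markers of other cells moved with treatment, where 2.1% of all genes were called in striatum, 2.54% in midbrain and 0.0681% in cortex. Of 11 astrocyte markers, 6 were higher in MPTP striatum, 3 in midbrain and 0 in cortex, and the mean level over the list on single arrays was 9.97 to 10.22 in MPTP striatum and 9.63 to 9.78 in saline striatum. Microglial markers were called higher in 6 of 11 in striatum and 1 in midbrain, with 8.51 to 8.82 in MPTP striatum and 8.27 to 8.38 in saline striatum. In midbrain the array means were 10.58 to 10.61 in MPTP mice and 10.29 to 10.53 in saline mice for astrocytes, and 8.04 to 8.26 in MPTP mice and 7.73 to 8.01 in saline mice for microglia. Oligodendrocyte markers rose in 6 of 11 in striatum, where the array means were 10.17 to 10.25 in MPTP mice and 9.81 to 9.90 in saline mice, and 1, Opalin, fell by 0.74 in midbrain. Endothelial markers rose in 3 of 10 in striatum and 1 in midbrain. The part of these cells in the chaperone differences was not tested.

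Of the 7 tested dopaminergic markers 0 were called, with array means of 8.50 to 8.68 in MPTP midbrain and 8.69 to 9.04 in saline midbrain. Over the regions, 1 of 5 tested choroid plexus and ependyma markers was called, Ttr, lower at -1.22. Of 8 cortical neuron markers only Rorb was called, higher at 0.34. It went against its list, where 6 of the 8 were lower in sign and the median was -0.08. Of 8 striatal neuron markers only Tac1 was called, higher at 0.36, with 6 of the list higher and 2 lower in sign. Of all genes 6.61% were higher and 2.43% lower. No pericyte marker was called. The regional labels matched their markers: Drd2 averaged 10.28 in MPTP and 10.24 in saline striatum and Slc17a7 10.5 in MPTP and 10.3 in saline cortex, and the dopamine transporter gene Slc6a3 stood above the filter value only in midbrain. Slc17a7 also ranged from 5.04 to 8.0 in MPTP striatum and from 7.50 to 8.61 in saline striatum, and its part in the striatal chaperone values was not tested.

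Between regions of saline mice the members differed far more than between treatments. In striatum against cortex 28 of the 61 were called (45.9%, beside 44% of all genes), 8 higher and 20 lower, where 20.5% of all genes were higher and 23.5% lower. In midbrain against cortex 30 were called (49.2%, beside 51.3%), 15 each way, with 27.8% of all genes higher and 23.6% lower. In midbrain against striatum 36 were called (59%, beside 58.2%), 21 higher and 15 lower, with 33.4% and 24.8% for all genes. The total shares lay close to the background and say nothing particular to the members. By direction, striatum against cortex held more lower and fewer higher members than the shares of all genes would give, which was not tested.

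**Figure D5:**
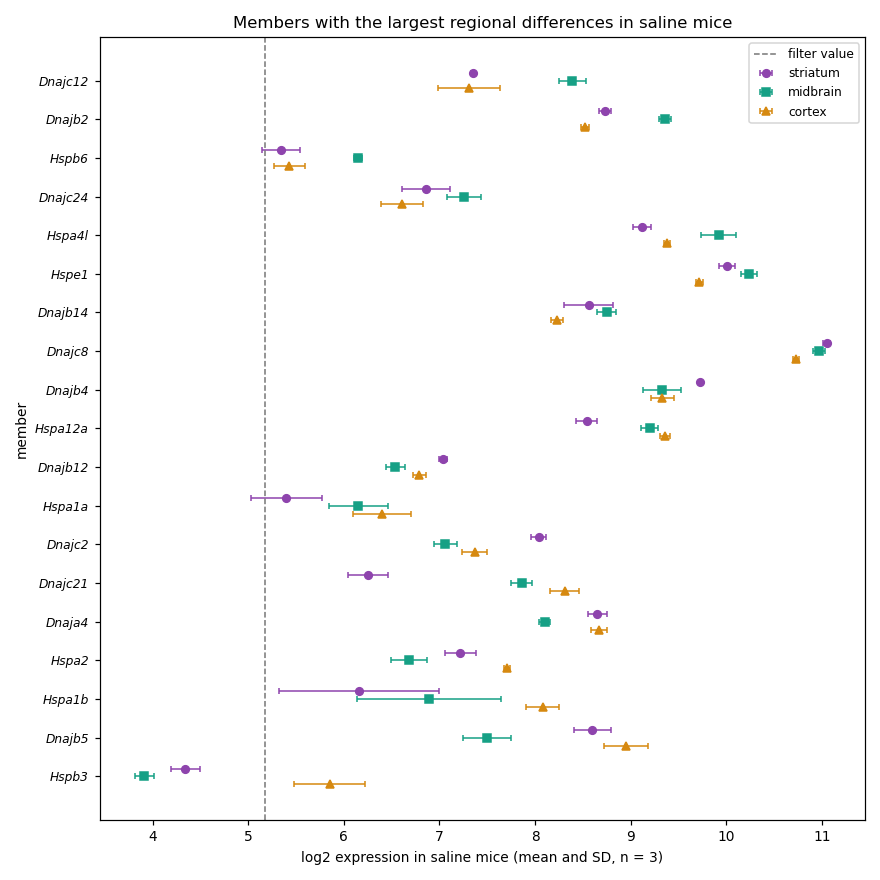
Mean log2 expression (SD, n = 3) in saline mice of the members with the largest called regional differences, ordered by midbrain minus cortex, with circles for striatum, squares for midbrain, triangles for cortex and a dashed line at the filter value of 5.18. Dnajc12 and Dnajb2 are highest in midbrain, Dnajc2 in striatum, and Dnajc21, Hspa1b and Hspb3 in cortex.

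The widest gap on the probe sets used belonged to Dnajc21, a DnaJ protein of ribosome assembly. It had 6.02, 6.43 and 6.28 in saline striatum, against 7.91, 7.74 and 7.95 in midbrain and 8.39, 8.14 and 8.40 in cortex. Striatum was 4.18-fold below cortex (-2.06 ± 0.16, SE) and midbrain 3.07-fold above striatum (1.62 ± 0.16), and the 3 regions did not overlap. A second bright probe set read -1.81 and 1.60, but with all probe sets of the gene averaged, 3 of them dim, the differences were -0.90 and 0.74, and for striatum minus cortex Hspa1b (-1.61) and Hspb3 (-1.51) then had the wider gaps. Dnajc2, which sits at the ribosome, was highest in striatum and lowest in midbrain, with 8.02, 8.13 and 7.97 in striatum, 7.20, 6.98 and 7.01 in midbrain and 7.36, 7.25 and 7.52 in cortex. It was 1.59-fold higher in striatum than in cortex and 1.97-fold lower in midbrain than in striatum. Averaged over its probe sets the log2 differences were 0.37 and -0.42, called in both cases.

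The inducible HSP70 genes were lowest in striatum. Hspa1b averaged 6.16 ± 0.84 in striatum, 6.89 ± 0.75 in midbrain and 8.08 ± 0.17 in cortex (SD, n = 3 each), a difference of -1.92 for striatum minus cortex. Midbrain and striatum overlapped for Hspa1b although the call was made there at 0.73. Hspa1a averaged 5.40, 6.15 and 6.40 in that order of regions, with striatum minus cortex at -1.0 and midbrain minus striatum at 0.76. Hspa12a, an atypical HSP70, was also lowest in striatum, at -0.82 against cortex, and Hspa2 was lowest in midbrain, at -1.03 against cortex and -0.54 against striatum. Hsp90aa1 stood at -0.43 for striatum minus cortex and 0.46 for midbrain minus striatum.

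Hspb3, a small heat shock protein known mainly from muscle, was above the filter value only in cortex, with 5.65, 6.27 and 5.63 there, 4.33, 4.49 and 4.20 in striatum and 3.91, 3.81 and 4.02 in midbrain. The fitted differences from cortex, -1.51 in striatum and -1.94 in midbrain, rest on levels below the filter value, and against that value the gap was at least 0.67. Hspb6, another small heat shock protein, was highest in midbrain, by 0.72 over cortex and 0.81 over striatum.

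Midbrain was set apart by several DnaJ genes. Dnajc12 had 8.55, 8.28 and 8.34 in midbrain, 7.35, 7.38 and 7.33 in striatum and 7.62, 6.98 and 7.35 in cortex, which made midbrain 2.06-fold higher than striatum and 2.11-fold higher than cortex. No midbrain array reached the range of the other regions. Dnajb2, a neuronal DnaJ protein that hands clients to the proteasome, was higher in midbrain by 0.85 over cortex and 0.63 over striatum. The exchange factor Hspa4l was higher by 0.53 and 0.79 in the same comparisons, and Dnajc24, which takes part in diphthamide synthesis, by 0.66 over cortex. On the lower side, Dnajb5 had 7.61, 7.22 and 7.67 in midbrain, 8.52, 8.46 and 8.82 in striatum and 8.82, 8.81 and 9.21 in cortex, so that midbrain was 2.73-fold below cortex and 2.14-fold below striatum. Dnaja4 was lower in midbrain by a similar amount against both, -0.57 from cortex and -0.56 from striatum, and Dnajb12 lay at -0.50 from striatum.

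Smaller gaps separated striatum from cortex in the other direction, with Dnajb4 at 0.41, Dnajb14 at 0.33, the splicing-associated Dnajc8 at 0.32 and the chaperonin subunit Hspe1 at 0.29. A second Dnajb14 probe set read -0.31 in that comparison, against 0.33 for the one used, and the call was lost with their average (0.01) and without striatum saline replicate 3 (0.18). Hspe1 and its partner Hspd1, which share the promoter printed above, were both higher in midbrain than in cortex, at 0.51 ± 0.07 and 0.24 ± 0.07 (SE). Dnajc6, the auxilin that uncoats clathrin vesicles, differed by -0.62 between striatum and cortex, and Dnajc5, the synaptic vesicle protein CSP-alpha, by -0.36. Other probe sets above the filter value were compared in sign with the one used, for named members only. In the saline comparisons 31 of 32 readings had the same sign, and in the MPTP comparisons 52 of 75. The saline members were named for the largest called differences, whereas the MPTP ones included differences near 0. These shares are therefore not like for like. Among the partner lists, 11 of the 14 CCT and prefoldin genes were higher in saline midbrain than in cortex and 10 than in striatum, with 0 lower in either. Of all genes, 27.8% were higher in midbrain than in cortex and 33.4% than in striatum.

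The 11 members below the filter value had mean levels between 3.28 and 5.13 and were not tested. They were Hspa1l, Hspb2, Hspb7, Hspb9, Hspbap1, Dnajb3, Dnajb7, Dnajb13, Dnajc5b, Dnajc5g and Dnajc25.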

How the data were processed

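Total RNA of each sample was hybridised to an Affymetrix mouse array, per the labels' protocols. The deposited values are log2 expression per probe set, made by the authors with RMA, per the submitters' processing notes, version not given in the sources used here. They ran from 2.48 to 14.2, and the log base was read from that range. RMA brings arrays to a common distribution, so a shift of all genes in a group would not show. Array medians lay between 5.14 and 5.21, interquartile ranges between 3.37 and 3.65, and correlations within a group between 0.991 and 0.997. No batch was given in the sources used here, and precision is limited by 3 arrays a group.

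Of 45101 probe sets 34958 named 1 gene, 932 several and 9211 none. Each gene was read from its probe set of highest mean, and 11741 genes were tested, those whose mean was 5.18 or more (the overall median) in some region. Limma 3.58.1 in R 4.3.3 fitted a mean for each of the 6 groups with intensity-trended variances (12 residual degrees of freedom, 23.2 after moderation), with Benjamini-Hochberg adjustment within each contrast. The mean over regions had treatment and replicate number as random block, as if a number marked 1 animal, which the labels do not state, with an estimated correlation of 0.00558. This was 1 value for all genes, and so small that the fit took arrays of different regions as nearly independent for every member. The code was tested on simulated data. Calls on all probe sets were made without block.

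The members and lists were chosen with earlier results of these data known. Named were the called members of each MPTP contrast, filled to 6 by smallest p, the 5 largest called saline differences each way, 10 members always given (Hspa1a, Hspa1b, Hspa8, Hsp90aa1, Hsph1, Dnajb1, Hspb1, Hspd1, Hspa5, Hsp90b1), and up to 4 genes of each list. Lists covered heat shock factor regulation, HSP70 and HSP90 co-chaperones, CCT and prefoldin, ER folding, mitochondrial folding, and markers of 9 cell types. Alternatives covered the filter, scaling, probe set choice, variance trend, arrays in the fit, blocks, and each array left out. Same-numbered MPTP and saline arrays of a region were not paired in the labels. Between regions, deviations of same-numbered arrays correlated above 0.1 for all 3 numbers in saline cortex and midbrain (0.225 to 0.342) and MPTP striatum and midbrain (0.117 to 0.183), but not throughout the other pairs of regions (-0.233 to 0.164). With the replicate block 31 members were called for saline midbrain minus cortex, and none of the differences named there changed its call.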

Additional observations from a re-analysis of the deposited data

How the results depend on the processing

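Of 1168 values computed for 52 results on MPTP under other settings, 1045 kept their direction and their side of the threshold, 74 lost it, 29 gained it and 20 reversed. Most of the 52 were uncalled and had no call to lose, so the 1045 do not measure how firm the calls were. All 74 losses fell on called differences. In 29 alternatives each over the regions, Hspa8 lost its call in 14, Dnajc10 in 13 and Hsp90b1 in 0. In striatum Hspa4, and in midbrain Hsp90b1, lost theirs in 8 of 17. For 30 results between saline regions, 499 of 502 kept both and 3 lost the threshold. The number of members called over the regions, 8 as reported, became 16 (4 higher, 12 lower) after a second quantile normalization, 14 (6 higher, 8 lower) with the interquartile range of the array as covariate, 4 with the mean over probe sets and 3 without a variance trend. It was 8 (1 higher, 7 lower) without each region's saline array of narrowest spread (interquartile range) and 6 without saline replicate 3 in every region, both chosen after seeing the data, as was the covariate. In striatum, with 1 as reported, the count was 3, 3 and 0 under second normalization, covariate and probe set mean, 2 with only the arrays compared, 2 with the replicate block and 2 without the saline arrays of narrowest spread. In midbrain, with 1, it was 5, 5 and 0 under the first 3 of these, 0 without a trend and 0 without those saline arrays. In cortex, with 0, it was 1, Dnajb14 each time, with only the arrays compared, 1 with the replicate block and 1 without saline replicate 3. Leaving out single arrays gave 0 to 2 in striatum, 0 to 7 in midbrain and 3 to 14 over the regions. The highest of these, 7 and 14, came without midbrain saline replicate 1 and midbrain saline replicate 2. The lowest over the regions, 3, came without striatum saline replicate 1 or 2. Hspa4 lost its striatal call without any one of 5 of the 6 arrays, and Hsp90b1 its midbrain call without any one of 4 of the 6. With the mean over probe sets reversals were Hspa8 at -0.16 in striatum, -0.06 in midbrain and -0.16 over the regions, Hspa13 at -0.01 in midbrain, and Dnaja3 at -0.0 in cortex and -0.04 for the response in midbrain minus striatum. The other reversals were of uncalled values near 0. Hsp90b1 in cortex (0.03) was -0.02 with second normalization and with the covariate, -0.01 with the mean over probe sets and without the saline arrays of narrowest spread, and -0.04 to 0.07 without single arrays. Over the regions, without those saline arrays Hspa1a was -0.05 and Hspa5 -0.01, with second normalization Hsp90aa1 was -0.0 and Hsph1 -0.01, and without single arrays Hspa1a ran from -0.0 to 0.12 and Hspd1 from -0.03 to 0.01. The cause of these changes was not tested. The dim Hspa8 probe set at -0.99 enters the mean over probe sets of that gene. Same-numbered MPTP and saline arrays of a region correlated between -0.194 and 0.294 after removal of group means. With 3 arrays a group these values cannot settle whether the numbers pair the treatments. The replicate block gave 9 members over the regions, the added one being Hspb1. Signal near the filter value limits Hspa1a, Hspb3, Hspb6, Dnajb8 and Dnajc22.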
